A study of Mus musculus with 10 samples.

Results

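The 35 genes described here belong to the immediate early and AP-1 group together with the feedback genes of the mitogen-activated protein kinases (MAPK). The rule picks them by name, from a list drawn up with earlier results of these data known: they are the rows of the deposited expression table whose Ensembl identifier carries one of 35 gene symbols in the GRCm38 annotation, and all 35 were found among 37991 identifiers. RNA was sequenced from primary mouse keratinocytes, the epithelial cells of the epidermis, grown from skin at postnatal days 4 to 5. The series asks how the loss of BCL10 and MALT1 signalling, which links receptors to NF-kB and MAPK in several cell types, alters the transcriptome and its response to IL-17A, an inflammatory cytokine of the skin.

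The groups were 2 Bcl10-/- libraries stimulated for 5 h with recombinant mouse IL-17A at 200 ng/mL, 2 unstimulated Bcl10-/- libraries, 3 stimulated Bcl10+/- libraries and 3 unstimulated Bcl10+/- libraries. The mutant allele is Bcl10tm1Mak, and the littermate controls carry 1 copy of it, so that no library comes from an animal with both copies intact. Cells of all groups were plated on collagen and kept at 0.05 mM CaCl2 without serum, a low-calcium condition under which keratinocytes keep a basal state. Libraries of the same genotype and number, with and without IL-17A, are called a culture. Nothing in the labels ties a number to an animal, a litter or a well, so the spread that the p-values rest on may be technical in part. Levels below are in FPKM (fragment number scaled to gene length and library size), and where several are given for a group they run in the order of the culture numbers.

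Immediate early genes are transcribed without new protein synthesis when growth factors, cytokines or stress activate ERK, JNK or p38. Serum response factor with its ETS partners reads ERK activity at CArG boxes, and FOS and JUN proteins pair into AP-1, which binds TGANTCA elements in epidermal differentiation and inflammatory genes. The same stimulus induces its own brakes, among them the dual-specificity phosphatases (DUSP), which dephosphorylate MAPK, and the ZFP36 proteins, which bind AU-rich elements and destabilise mRNA. Most of these transcripts peak early after a stimulus and decline within hours, and IL-17A receptors signal to NF-kB, MAPK and mRNA stability through ACT1 and TRAF6.

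The following 300-base promoter windows (RefSeq, GRCm38.p6, 250 bases before to 50 after an annotated start, on the gene's strand) show known promoter elements in 5 members, chosen after their values were seen. Ier3, Maff and Fosl2 are given because they are the members that stood higher with IL-17A in every culture and hold an NF-kB element, and Srf and Dusp5 because each holds 2 CArG boxes in 1 window. Capitals mark matches to an NF-kB element in Ier3 (chr17:35821463-35821762, plus strand), Maff (chr15:79348152-79348451, plus strand, 1 of 3 windows of the gene) and Fosl2 (chr5:32136222-32136521, plus strand). They mark CArG boxes in Srf (chr17:46556113-46556412, minus strand) and Dusp5 (chr19:53528895-53529194, plus strand), and in Srf and Fosl2 also an EGR box (GCGNGGGCG).
Ier3: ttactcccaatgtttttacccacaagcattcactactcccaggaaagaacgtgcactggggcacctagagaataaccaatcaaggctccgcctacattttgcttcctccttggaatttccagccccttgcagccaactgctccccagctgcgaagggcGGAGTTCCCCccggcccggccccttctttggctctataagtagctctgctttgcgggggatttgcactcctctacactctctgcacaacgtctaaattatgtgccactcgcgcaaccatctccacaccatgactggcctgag
Maff: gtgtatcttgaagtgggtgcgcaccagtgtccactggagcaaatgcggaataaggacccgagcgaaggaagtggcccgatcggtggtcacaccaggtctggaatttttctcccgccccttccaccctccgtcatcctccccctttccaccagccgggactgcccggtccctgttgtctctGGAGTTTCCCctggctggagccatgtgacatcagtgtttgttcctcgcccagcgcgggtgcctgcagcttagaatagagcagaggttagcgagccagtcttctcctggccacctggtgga
Fosl2: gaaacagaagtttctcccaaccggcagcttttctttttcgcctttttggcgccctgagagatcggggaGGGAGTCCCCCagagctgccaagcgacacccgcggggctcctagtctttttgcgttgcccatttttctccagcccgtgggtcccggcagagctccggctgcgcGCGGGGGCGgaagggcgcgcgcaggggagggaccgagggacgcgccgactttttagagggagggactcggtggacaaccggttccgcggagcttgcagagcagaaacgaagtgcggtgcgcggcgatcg
Srf: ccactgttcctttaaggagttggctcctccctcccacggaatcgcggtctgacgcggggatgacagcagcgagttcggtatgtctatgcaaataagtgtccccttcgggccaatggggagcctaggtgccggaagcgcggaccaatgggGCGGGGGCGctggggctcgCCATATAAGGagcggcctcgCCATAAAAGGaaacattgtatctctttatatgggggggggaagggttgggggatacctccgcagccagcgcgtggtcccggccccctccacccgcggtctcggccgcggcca
Dusp5: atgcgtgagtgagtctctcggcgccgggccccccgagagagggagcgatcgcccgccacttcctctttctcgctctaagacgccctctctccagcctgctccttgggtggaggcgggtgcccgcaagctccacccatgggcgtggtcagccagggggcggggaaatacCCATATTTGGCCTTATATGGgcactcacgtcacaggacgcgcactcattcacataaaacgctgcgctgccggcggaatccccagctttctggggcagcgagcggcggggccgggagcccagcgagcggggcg

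In Ier3 the NF-kB match began at -92 from the start, in Maff at -70, and in Fosl2 a pair of overlapping matches at -182 and -181. In Srf the CArG boxes began at -82 and -62, and in Dusp5 at -82 and -72, directly next to each other. Promoter windows were found for 26 of the 35 members, 32 windows in all, and not for Fosl1, Egr1, Egr3, Ier2, Dusp4, Myc, Klf10, Trib1 and Phlda1. Both strands were searched, and matches of different elements did not overlap. A CArG box lay in 4 of the 26 members (Srf, Dusp5, Egr2 and Zfp36), a share of 15.4%, beside 1.61% of genes at 1 FPKM or more and 1.63% of all 32851 windows. The EGR box lay in 11 of 26 members (42.3%), beside 12.9% of genes at 1 FPKM or more and 5.55% of all windows. The NF-kB element lay in 7 of 26 members (26.9%), beside 12.3% of such genes and 8.46% of all windows, and the full cAMP response element TGACGTCA in 3 (11.5%), beside 3.85% and 1.79%. The AP-1 element TGANTCA lay in 1 member, Zfp36l1 (3.85%), beside 6.09% of such genes and 7.81% of all windows. Of the 6 members with a window that stood higher with IL-17A in every culture, 3 held the NF-kB element (Junb, Dusp10 and Zfp36l1 did not), as did 4 of the other 20 (Fos, Fosb, Egr2 and Nr4a1). These are counts of letters in a short window, not of bound sites.

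Many members, though not all, had few exons and an AU-rich 3′ end, features that their names did not select. By the transcript with the longest coding sequence in GENCODE M21, 19 of 35 (54.3%) had at most 3 exons, beside 12.8% of protein-coding genes at 1 FPKM or more, and the median gene span was 5412 bp, beside 23540 bp. The heptamer TATTTAT, the core of AU-rich decay elements, lay in the 3′ UTR of 20 of 35 members (57.1%), beside 28.2% of protein-coding genes at 1 FPKM or more. The other 16 had more than 3 exons, 15 held no heptamer, and Trib1, Ier2 and Batf held no ATTTA in the 3′ UTR. Ier3 held 4 heptamers in a 3′ UTR of 613 nt and the highest density of ATTTA among the members, 8.16 per kb. The stretches below hold 2 heptamers each (capitals) in Ier3 (bases 171 to 196 of the 3′ UTR) and in Zfp36 (bases 571 to 596), whose protein binds this element.
Ier3: tgtctaattaaTATTTATgTATTTAT
Zfp36: ccttTATTTATgacgacttTATTTAT

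Depth, estimated from the steps of low values, was 15.7 to 50.4 M fragments per library, so that 3 fragments in a gene of 1 kb equal 0.0596 to 0.191 FPKM. All 10 libraries were high in the basal keratin Krt5 (4430 to 6426 FPKM). Of 7 basal markers 6 averaged 1 FPKM or more, and the exception, the keratin Krt15, reached at most 0.18 FPKM. Of 9 leukocyte markers Ptprc, Cd3e, Cd52, Adgre1, Itgam, Cd207 and Tyrobp were listed at 0 throughout, and Csf1r reached at most 0.0243 FPKM. Cd68, a lysosomal gene, had 5.10 to 10.5 FPKM in all 10 libraries. The summed level of 7 melanocyte markers was 171 to 184 FPKM in knockout libraries, against 192 and 201 in the libraries labelled heterozygous culture 1 and 320 to 411 in cultures 2 and 3 of that genotype. Summed fibroblast markers were 35.3 and 35.5 FPKM in knockout culture 2 and at most 1.62 elsewhere. Bcl10 did not follow the labels throughout. The libraries labelled heterozygous culture 1 had 16.3 FPKM with IL-17A and 18.0 without, and 3 of the 4 knockout libraries lay between these values. The other 4 heterozygous libraries had 59.5 to 72.3 FPKM. The unstimulated library of knockout culture 1 had 0.969 FPKM of Bcl10, against 16.4 FPKM in the stimulated library of that culture. The pairing of these libraries rests on their labels, and the counts over 5 cultures and the block fits use it. The unstimulated library stood apart also in composition: 12.6% of its summed FPKM lay in its 10 most abundant genes, a share of 8.21% to 8.66% elsewhere. The library numbers in the labels run from 1 to 14 for both knockout cultures and heterozygous culture 1, and from 33 to 38 for heterozygous cultures 2 and 3. For cultures 2 and 3, genotype and number range cannot be told apart, and comparisons of genotype are therefore also given within numbers 1 to 14.

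Most of the group was expressed in unstimulated keratinocytes, and 30 of 35 members reached a mean of 1 FPKM over the 10 libraries, the filter for testing. Ier3 was the most abundant at a mean of 248 FPKM, followed by Junb (134.5 FPKM), Klf6 and Phlda1 (both 122 FPKM). Dusp6, Myc and Dusp5 followed at 74.3, 58.6 and 58.1 FPKM. At the low end, Batf, an AP-1 partner best known from lymphocytes, was listed between 0 and 0.145 FPKM. Dusp2 (0.187 to 0.640 FPKM), Nr4a2 (0.297 to 0.532 FPKM), Klf2 (0.556 FPKM on average) and Egr2 (0.712 FPKM on average) also averaged under the filter. Just above it were Fosb (1.22 FPKM) and Egr3 (1.92 FPKM). FPKM is per length, so these levels can be set beside each other, within 2 limits. Gapdh, a glycolytic gene that every cell uses, was listed at only 0.278 to 4.58 FPKM, so that a low value in this table need not mean a low transcript level. Reads of overlapping genes are shared in an unknown way. Exons of Junb overlap those of Prdx2 (up to 71.4 FPKM) on the opposite strand, those of Dusp1 overlap Ergic1 (up to 22.2 FPKM), and those of Fosl1 overlap Ccdc85b, and how strand was handled is not stated in the labels.

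**Figure D1:**
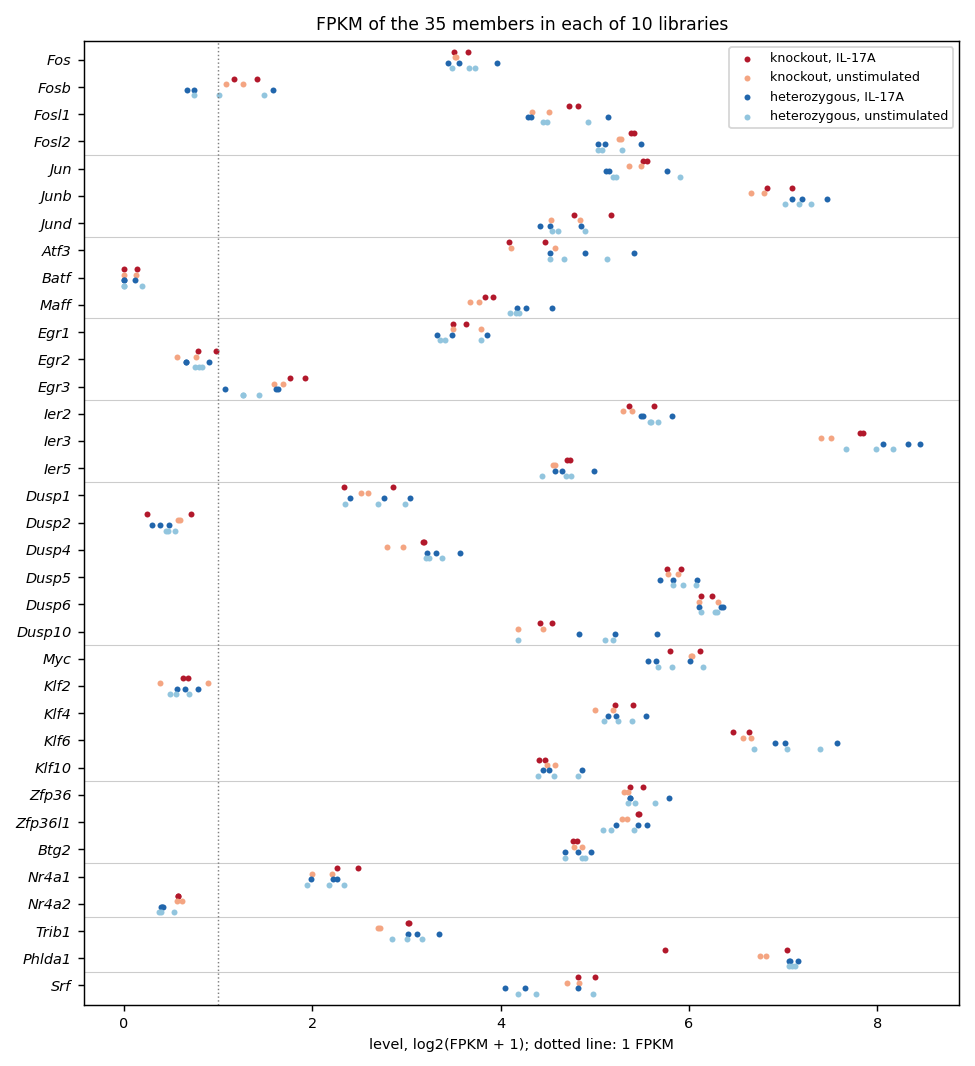
Level of each of the 35 members, grouped by role, in each of 10 libraries, as log2(FPKM + 1) on the horizontal axis; each point is 1 library, coloured by group, and the dotted line marks 1 FPKM. Within most members the points of all 4 groups lie together, Ier3 is the highest at a mean of 248 FPKM, and 5 members (Batf, Dusp2, Nr4a2, Klf2 and Egr2) average under 1 FPKM.

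After 5 h of IL-17A the changes in the group were small, and 0 of 30 members passed the test. By limma on log2(FPKM + 1), with p-values adjusted by Benjamini-Hochberg over all 12054 genes tested, 0 of 30 members were called for IL-17A in knockout cells, where 3 genes in all were (0.0249%). In heterozygous cells 0 of 30 members were called, where 1 gene in all was (0.0083%), and for the change averaged over genotypes 0 of 30, where 6 genes in all were (0.0498%). At an unadjusted p under 0.05 the same tests held 0 of 30 members in knockout cells (1.46% of all genes), 1 of 30 in heterozygous cells (1.34%) and 2 of 30 for the average (1.45%). With culture as a fixed block, 5 of 30 members had an unadjusted p under 0.05 in knockout cells, all of them higher, beside 5.04% of all genes in either direction and 2.95% upward. In heterozygous cells there were 4 of 30, all of them higher, beside 6.93% in either direction and 3.22% upward. In the same fit 8 of 30 members had an unadjusted p under 0.05 for the average, all of them higher, beside 5.94% of all genes in either direction and 3.17% upward. Across members the averaged log2 change had a median of 0.07 and ran from -0.19 to 0.36, beside a median of -0.006 over all genes. It was above 0 in 24 of 30 members, beside 46.3% of all genes. Each culture gave its own change, and 7 of 30 members were higher with IL-17A in all 5 cultures (Ier3, Dusp10, Trib1, Zfp36l1, Maff, Junb and Fosl2), beside 3.65% of all genes, and 0 of 30 were lower in all 5, beside 4.29%.

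**Figure D2:**
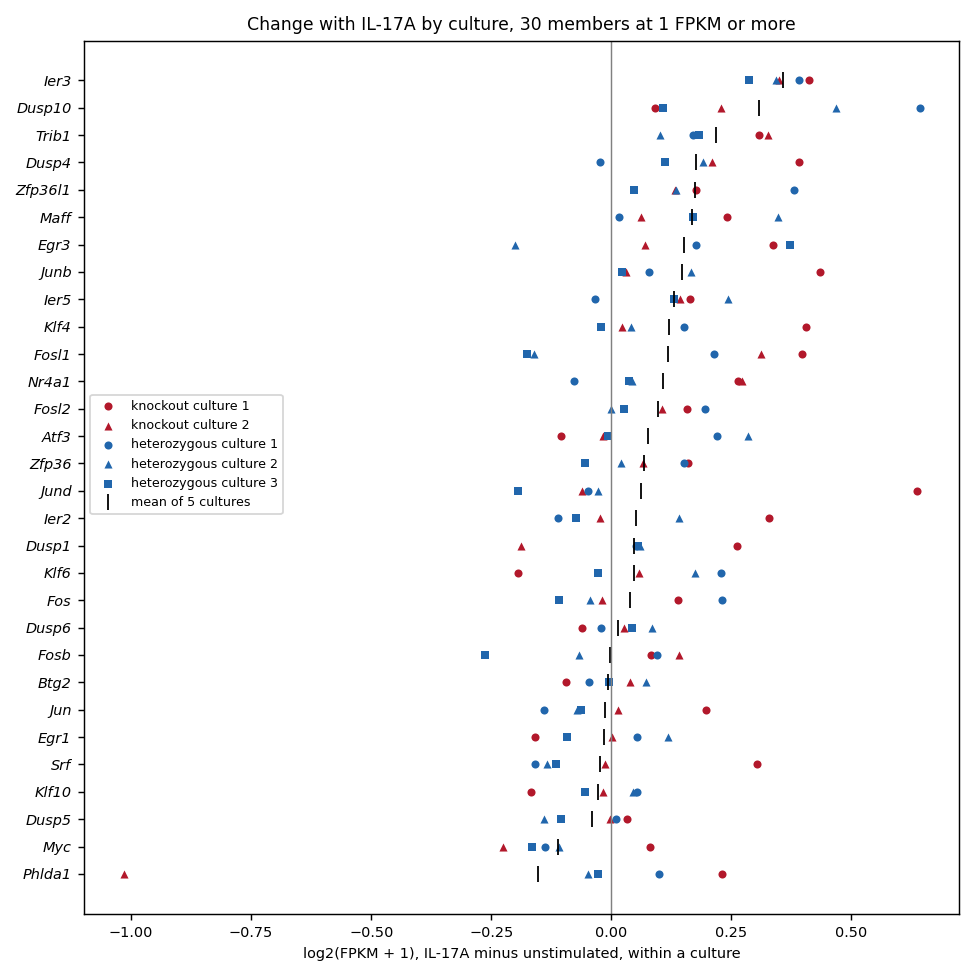
Change of log2(FPKM + 1) with IL-17A (IL-17A minus unstimulated) within each of 5 cultures for the 30 members at 1 FPKM or more; symbols are cultures, red for knockout and blue for heterozygous, and the bar is the mean of the 5. Ier3 lies at 0.29 to 0.41 in all 5 cultures, most members scatter on both sides of 0, and Phlda1 in knockout culture 2 stands far to the left at -1.01.

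Ier3 (ENSMUSG00000003541, GRCm38 chromosome 17, 35821684 to 35822923, plus strand), an NF-kB and ERK target that modulates survival signalling, had the most even change. Ier3 had 225 and 230.2 FPKM in knockout libraries with IL-17A and 169 and 180.5 FPKM without, against 266, 321 and 349 FPKM in heterozygous libraries with IL-17A and 203, 253 and 286 FPKM without. Every stimulated library exceeded the unstimulated library of its own culture, by 1.22 to 1.33 times in FPKM. The knockout groups did not overlap and the heterozygous groups did. The averaged log2 change was 0.36 (SE 0.11, 95% interval 0.10 to 0.62, 1.28-fold, limma adjusted p = 0.9999). With culture as a fixed block, its adjusted p was 0.0614, and with culture as a random effect 0.0555. A fit with a single IL-17A effect over the 5 cultures, added after the data were seen, called Ier3 (log2 0.36, SE 0.03, 1.28-fold, limma adjusted p = 0.0218) among 18 of 12054 genes (0.149%), and this call was lost on leaving out knockout culture 2 or any of the 3 heterozygous cultures.

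Trib1 (ENSMUSG00000032501, GRCm38 chromosome 15, 59648350 to 59657099, plus strand), a pseudokinase that recruits the COP1 ubiquitin ligase and binds MAPK kinases, followed. In knockout libraries Trib1 stood at 7.12 and 7.13 FPKM with IL-17A and 5.56 and 5.48 FPKM without, and in heterozygous libraries at 7.11, 7.63 and 9.19 FPKM with IL-17A and 6.21, 7.04 and 7.98 FPKM without. It was higher with IL-17A in 5 of 5 cultures, by 1.08 to 1.30 times, and the knockout groups did not overlap. The averaged log2 change was 0.23 (SE 0.09, limma adjusted p = 0.9999), and with the block it did not pass either (adjusted p = 0.294).

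Among the MAPK phosphatases, Dusp4 and Dusp10 had the largest positive averages and the other 3 that were tested averaged between -0.03 and 0.05. Dusp4 (ENSMUSG00000031530, GRCm38 chromosome 8, 34807297 to 34819894, plus strand), a nuclear phosphatase of ERK and JNK, was higher in 4 of 5 cultures. Knockout libraries held 8.07 and 8.04 FPKM of Dusp4 with IL-17A, against 5.92 and 6.82 FPKM unstimulated, and heterozygous libraries 8.29, 10.8 and 8.96 FPKM with IL-17A, against 8.44, 9.36 and 8.21 FPKM unstimulated. The exception was the culture labelled heterozygous 1, and the averaged log2 change was 0.20 (SE 0.09, limma adjusted p = 0.9999). Dusp10 (ENSMUSG00000039384, GRCm38 chromosome 1, 184013302 to 184075636, plus strand), a phosphatase of p38 and JNK, was higher in 5 of 5 cultures but unevenly, by 1.07 to 1.59 times. Its levels were 22.3 and 20.3 FPKM in stimulated and 20.9 and 17.2 FPKM in unstimulated knockout libraries, and 27.5, 49.7 and 36.2 FPKM in stimulated and 17.2, 35.6 and 33.5 FPKM in unstimulated heterozygous libraries. Its averaged log2 change was 0.28, with a 95% interval of -0.23 to 0.80 in the fit without a block. That fit counts the differences in level between cultures in its spread. Dusp6, the cytoplasmic ERK phosphatase whose transcript is often read as a gauge of ERK output, stayed within 67.9 to 81.5 FPKM over all 10 libraries. Its averaged log2 change was 0.01 (95% interval -0.18 to 0.20; with the block -0.08 to 0.10). Dusp5, the nuclear ERK phosphatase printed above, ranged from 50.9 to 66.8 FPKM, with an averaged change of -0.03 (95% interval -0.24 to 0.18). Dusp1, an inducible phosphatase of p38 and JNK, ranged from 4.04 to 7.20 FPKM, with ratios of 0.85 to 1.24 between the libraries of a culture. Dusp2, under the filter and not tested, was lower in 4 of 5 cultures, with ratios of 0.387 to 1.25. Of the 5 tested phosphatases 0 were called in any of the 6 comparisons. With culture as a fixed block, 2 of the 5 were higher for the average at an unadjusted p under 0.05, beside 3.17% of all genes.

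The FOS family gave no call for IL-17A in any of its 4 members. Fos, the prototype immediate early gene, was near its unstimulated level at 5 h. With IL-17A the knockout libraries had 11.6 and 10.4 FPKM of Fos, against 10.4 and 10.5 FPKM without, and the heterozygous libraries 14.6, 9.88 and 10.8 FPKM, against 12.3, 10.2 and 11.7 FPKM without. The groups overlapped in both genotypes, and the averaged log2 change was 0.04 (95% interval -0.20 to 0.29; with the block -0.12 to 0.21). Fosl1, which encodes the FRA-1 protein of migrating and wound-edge keratinocytes, was higher in both knockout cultures and in the culture labelled heterozygous 1, and lower in heterozygous cultures 2 and 3. Fosl1 had 25.5 and 27.3 FPKM in knockout libraries with IL-17A and 19.1 and 21.8 FPKM without, against 34.3, 18.6 and 19.0 FPKM in heterozygous libraries with IL-17A and 29.4, 20.9 and 21.6 FPKM without. Knockout libraries with IL-17A did not overlap those without. Fosl2, encoding FRA-2, was higher in 5 of 5 cultures by 1.00 to 1.15 times, the smallest of these ratios lying within rounding of equality in heterozygous culture 2. In knockout libraries Fosl2 stood at 41.6 and 40.8 FPKM with IL-17A and 37.2 and 37.9 FPKM without, and in heterozygous libraries at 43.9, 31.8 and 33.4 FPKM with IL-17A and 38.2, 31.8 and 32.8 FPKM without. Scaling each library to the same total (TPM scaling) left 6 members in place of 7 that were higher in all 5 cultures. Fosb stood close to the filter. Knockout libraries held 1.25 and 1.65 FPKM of Fosb with IL-17A, against 1.12 and 1.41 FPKM unstimulated, and heterozygous libraries 2.00, 0.595 and 0.679 FPKM with IL-17A, against 1.81, 0.671 and 1.02 FPKM unstimulated. The libraries labelled heterozygous culture 1 were the highest and those of heterozygous cultures 2 and 3 the lowest, in each condition, and the change with IL-17A was upward in 3 cultures and downward in 2.

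In the JUN family the changes were small and partly rested on 1 culture. Junb (ENSMUSG00000052837, GRCm38 chromosome 8, 84974484 to 84978718, minus strand), an AP-1 subunit that restrains cytokine expression in mouse epidermis, was higher with IL-17A in 5 of 5 cultures. Its levels were 135 and 113 FPKM in stimulated and 99.9 and 111 FPKM in unstimulated knockout libraries, and 136, 176 and 146 FPKM in stimulated and 129, 157 and 143 FPKM in unstimulated heterozygous libraries. The increase was 1.36 times in knockout culture 1 and 1.02 to 1.12 times in the other 4 cultures, and the averaged log2 change was 0.16 (SE 0.10, limma adjusted p = 0.9999). Jund, the constitutively expressed member, exceeded its unstimulated library in knockout culture 1 alone. With IL-17A the knockout libraries had 35.0 and 26.5 FPKM of Jund, against 22.1 and 27.7 FPKM without, and the heterozygous libraries 27.9, 21.9 and 20.4 FPKM, against 28.9, 22.4 and 23.4 FPKM without. There the ratio was 1.58, against 0.869 to 0.980 in the other 4 cultures. Jun (ENSMUSG00000052684, GRCm38 chromosome 4, 95049034 to 95052222, minus strand), the main partner of FOS proteins, was higher in both knockout cultures and lower in all 3 heterozygous ones. Jun had 46.2 and 44.6 FPKM in knockout libraries with IL-17A and 40.1 and 44.1 FPKM without, against 53.4, 34.5 and 33.9 FPKM in heterozygous libraries with IL-17A and 58.9, 36.3 and 35.5 FPKM without. The ratios ran from 0.906 to 1.15, the averaged log2 change was 0.01 (95% interval -0.40 to 0.41), and the difference between genotypes did not pass (log2 0.20, limma adjusted p = 0.9997). Knockout culture 1 holds the unstimulated library that stands apart in its 10 most abundant genes. It gave the highest log2 change of the 5 cultures in 14 of 30 members, beside 31.2% of all genes: Fosl1, Jun, Junb, Jund, Ier2, Ier3, Dusp1, Dusp4, Dusp5, Myc, Klf4, Zfp36, Phlda1 and Srf. In the 4 cultures without it, 7 of 30 members, the same genes as over 5 cultures, were higher in every one, beside 9.7% of all genes, and 3 (Jund, Myc and Srf) were lower in every one, beside 13%. Ier3 lay at log2 0.29 to 0.39 in those 4.

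Maff (ENSMUSG00000042622, GRCm38 chromosome 15, 79346621 to 79359076, plus strand), a small MAF protein that pairs with AP-1 and NRF2 family factors, was higher with IL-17A in 5 of 5 cultures by 1.01 to 1.29 times. In knockout libraries Maff stood at 14.1 and 13.3 FPKM with IL-17A and 11.8 and 12.7 FPKM without, and in heterozygous libraries at 17.1, 22.3 and 18.3 FPKM with IL-17A and 16.9, 17.3 and 16.1 FPKM without. The averaged log2 change was 0.16 (SE 0.08, limma adjusted p = 0.9999). Atf3, a stress-induced partner of JUN, was higher in 2 of the 3 heterozygous cultures and lower in the remaining 3 cultures. Knockout libraries held 21.1 and 16.0 FPKM of Atf3 with IL-17A, against 22.8 and 16.2 FPKM unstimulated, and heterozygous libraries 28.8, 41.7 and 22.0 FPKM with IL-17A, against 24.6, 34.1 and 22.1 FPKM unstimulated. Heterozygous culture 2 held its highest values with and without IL-17A.

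Of the EGR factors, Egr1, which reports ERK-driven transcription in many cells, stayed at 9.00 to 13.4 FPKM, with an averaged log2 change of -0.03 (95% interval -0.33 to 0.28). Egr3 was higher in 4 of 5 cultures at levels close to the filter. Its levels were 2.80 and 2.39 FPKM in stimulated and 2.01 and 2.23 FPKM in unstimulated knockout libraries, and 2.06, 1.10 and 2.12 FPKM in stimulated and 1.71, 1.41 and 1.41 FPKM in unstimulated heterozygous libraries. Knockout libraries lay above heterozygous ones of the same condition without overlap. Egr2 was under the filter and not tested. Egr2 had 0.731 and 0.975 FPKM in knockout libraries with IL-17A and 0.481 and 0.704 FPKM without, against 0.577, 0.576 and 0.875 FPKM in heterozygous libraries with IL-17A and 0.693, 0.774 and 0.736 FPKM without. It was higher in 3 cultures and lower in 2, and the groups overlapped in heterozygous cells.

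Of the 3 RNA decay and antiproliferative genes, Zfp36l1 (ENSMUSG00000021127, GRCm38 chromosome 12, 80107754 to 80113013, minus strand), which encodes an AU-rich element binding protein, was higher in 5 of 5 cultures by 1.03 to 1.31 times. With IL-17A the knockout libraries had 43.1 and 43.3 FPKM of Zfp36l1, against 38.0 and 39.5 FPKM without, and the heterozygous libraries 45.9, 36.4 and 43.1 FPKM, against 35.0, 33.0 and 41.7 FPKM without. Its averaged log2 change was 0.17 (SE 0.09, limma adjusted p = 0.9999). Zfp36, encoding tristetraprolin, was higher in 4 of 5 cultures by at most 1.12 times and stayed within 38.7 to 54.5 FPKM. Btg2, an antiproliferative cofactor of mRNA deadenylation, varied least among the 3, between 24.7 and 30.2 FPKM, with ratios of 0.934 to 1.05.

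Among the remaining genes, Ier5, a regulator of heat shock factor activity, was higher in 4 of 5 cultures. Ier5 had 25.7 and 25.1 FPKM in knockout libraries with IL-17A and 22.8 and 22.6 FPKM without, against 24.2, 30.8 and 22.8 FPKM in heterozygous libraries with IL-17A and 24.8, 25.9 and 20.8 FPKM without. The averaged log2 change was 0.13 (SE 0.10, limma adjusted p = 0.9999). Ier2, a nuclear immediate early protein, was higher in 2 cultures and lower in 3. In knockout libraries Ier2 stood at 48.4 and 40.3 FPKM with IL-17A and 38.3 and 41.0 FPKM without, and in heterozygous libraries at 43.8, 55.3 and 44.6 FPKM with IL-17A and 47.4, 50.1 and 46.9 FPKM without. Klf4, a transcription factor required for barrier formation in mouse epidermis, was higher in 4 of 5 cultures. Knockout libraries held 41.5 and 36.2 FPKM of Klf4 with IL-17A, against 31.1 and 35.6 FPKM unstimulated, and heterozygous libraries 45.7, 34.4 and 36.4 FPKM with IL-17A, against 41.1, 33.4 and 37.0 FPKM unstimulated. As with Junb, its ratio was largest in knockout culture 1, at 1.34, against 0.984 to 1.11 in the other 4. Nr4a1, an orphan nuclear receptor, was higher by 1.27 times in both knockout cultures and lay at 0.935 to 1.04 times in the heterozygous ones. Its levels were 3.80 and 4.60 FPKM in stimulated and 3.00 and 3.64 FPKM in unstimulated knockout libraries, and 3.80, 2.96 and 3.66 FPKM in stimulated and 4.06, 2.85 and 3.54 FPKM in unstimulated heterozygous libraries. Myc, the growth regulator, was lower with IL-17A in 4 of 5 cultures (46.3 to 70.0 FPKM over all libraries, averaged log2 change -0.11, 95% interval -0.40 to 0.19). Klf2, a Kruppel-like factor best known from endothelium and lymphocytes, was under the filter and not tested. Klf2 had 0.603 and 0.543 FPKM in knockout libraries with IL-17A and 0.305 and 0.860 FPKM without, against 0.721, 0.476 and 0.572 FPKM in heterozygous libraries with IL-17A and 0.402, 0.617 and 0.466 FPKM without. It was higher in 3 cultures and lower in 2, and the groups overlapped in both genotypes. Klf10, induced by TGF-beta in many cells, stayed at 20.1 to 28.1 FPKM. The serum response factor gene Srf (ENSMUSG00000015605, GRCm38 chromosome 17, 46548329 to 46556175, minus strand) was lower in 4 of 5 cultures, with ratios of 0.893 to 0.991, and higher in knockout culture 1 at 1.24 times. With IL-17A the knockout libraries had 31.2 and 27.2 FPKM of Srf, against 25.1 and 27.5 FPKM without, and the heterozygous libraries 27.3, 15.6 and 18.2 FPKM, against 30.6, 17.2 and 19.8 FPKM without. Its levels separated by library number, with 25.1 to 31.2 FPKM in numbers 1 to 14 and 15.6 to 19.8 FPKM in numbers 33 to 38.

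**Figure D3:**
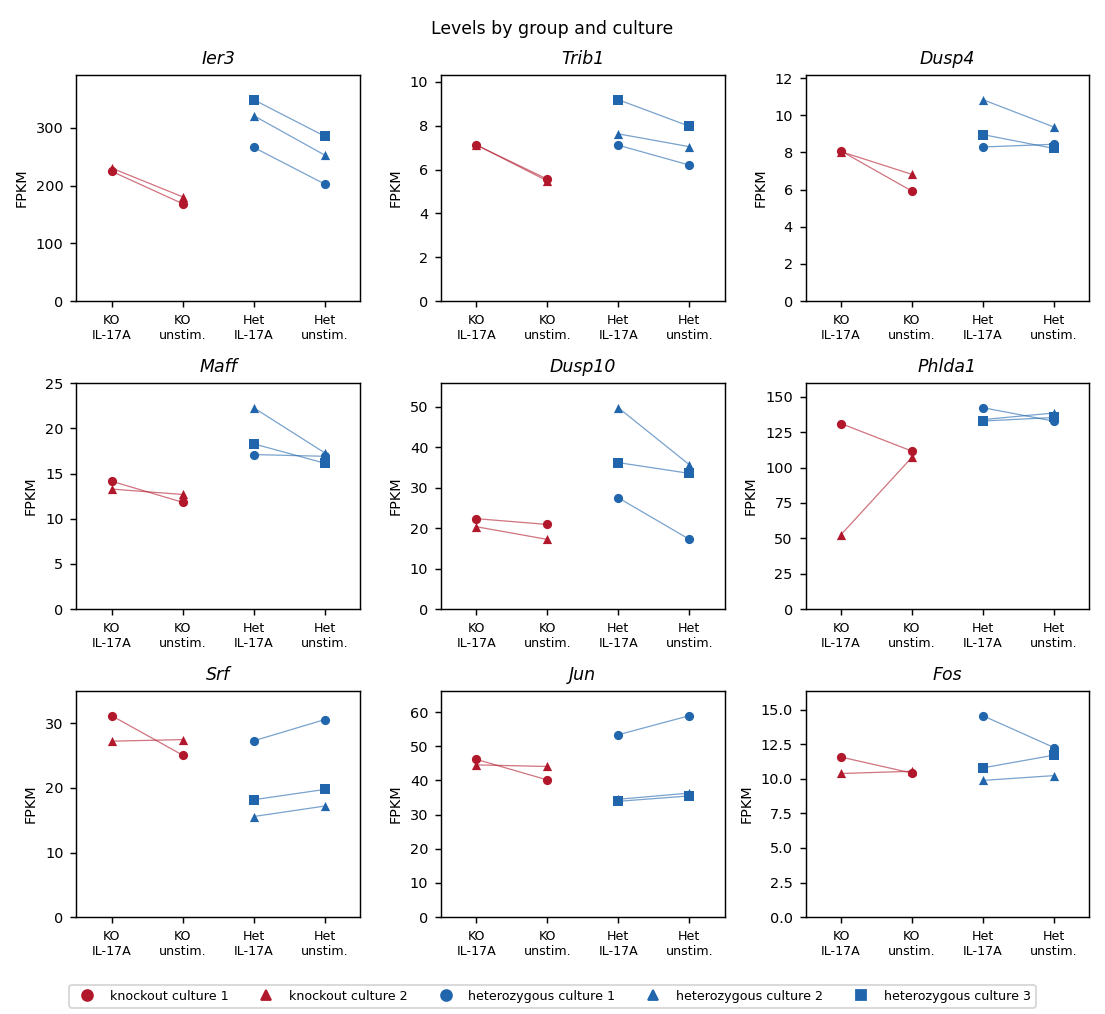
FPKM of 9 members in each library, with the IL-17A library left of the unstimulated one in each genotype and a line joining the libraries of a culture; red marks knockout (KO) and blue heterozygous (Het), each vertical axis starts at 0. Ier3 and Trib1 slope the same way in all 5 cultures, Maff and Dusp4 lie lower in knockout libraries, Srf and Jun separate heterozygous culture 1 from cultures 2 and 3, and Phlda1 has 1 low library at 52.6 FPKM.

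The response to IL-17A was then compared between genotypes. For the difference in log2 change, knockout minus heterozygous, 0 of 30 members and 0 of 12054 genes (0%) passed by limma, with 0 of 30 members at an unadjusted p under 0.05, beside 1.19% of all genes. With culture as a fixed block 3 of 30 members had an unadjusted p under 0.05, all of them higher, beside 5.18% of all genes in either direction and 3.1% upward. They were Fosl1 (95% interval with the block 0.04 to 0.74, limma adjusted p = 0.779), Nr4a1 and Srf. Without the block, the 4 smallest p-values belonged to Jund (log2 0.38, SE 0.26), Nr4a1 (0.27, SE 0.21), Dusp4 (0.21, SE 0.17) and Fosl1 (0.39, SE 0.36). In that fit each had a limma adjusted p of 0.9997 and a 95% interval on both sides of 0. Knockout libraries with IL-17A lay above those without in 14 of 30 members, beside 13% of all genes, and below them in 1 (Klf10), beside 13.5%. In heterozygous libraries no member separated: 0 of 30 upward, beside 1.5%, and 0 of 30 downward, beside 2.05%. The groups differ in size, 2 against 2 and 3 against 3, so these counts are read beside their own shares and not against each other.

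Between genotypes without stimulation, 0 of 30 members passed and 0 of 12054 genes did (0%). At an unadjusted p under 0.05 there were 5 members, all lower in knockout libraries, beside 4.66% of all genes. Lower calls of this kind made up 2.85% of all genes. The 5 were Maff (log2 -0.42, SE 0.12), Dusp4 (-0.39, SE 0.12), Ier3 (-0.49, SE 0.16), Junb (-0.43, SE 0.15) and Trib1 (-0.30, SE 0.13), each with a limma adjusted p of 0.728. Ier2 followed (log2 -0.27, SE 0.13, limma adjusted p = 0.728). By the per-library values, 9 of 30 members lay lower in the unstimulated knockout libraries than in all 3 heterozygous ones, beside 15.4% of all genes. The 9 were Junb, Maff, Ier2, Ier3, Dusp4, Klf6, Zfp36, Trib1 and Phlda1. Only 1 of 30 (Egr3) lay higher, beside 12.3% of all genes.

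With IL-17A, 0 of 30 members passed between genotypes, where 3 of 12054 genes did (0.0249%), and 6 members had an unadjusted p under 0.05, beside 8.14% of all genes. All 6 were lower in knockout libraries, where 3.74% of all genes were. Maff averaged 13.7 ± 0.61 FPKM in knockout libraries and 19.2 ± 2.71 FPKM in heterozygous libraries (SD, n = 2 and 3), with a log2 difference of -0.45 (SE 0.12, limma adjusted p = 0.507). Ier3 averaged 227 ± 3.96 FPKM in knockout libraries and 312 ± 42.0 FPKM in heterozygous libraries, with a difference of -0.45 (SE 0.16, limma adjusted p = 0.507). Dusp10 (-0.76, SE 0.32) and Atf3 (-0.67, SE 0.28) had the same adjusted p. Both stimulated knockout libraries lay below all 3 stimulated heterozygous ones in 8 of 30 members, beside 13.8% of all genes, and above them in 2, beside 14.8%.

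Klf6 (ENSMUSG00000000078, GRCm38 chromosome 13, 5861482 to 5870394, plus strand), a Kruppel-like factor induced in wounds, was among the lower members. Klf6 had 87.5 and 98.5 FPKM in knockout libraries with IL-17A and 100.2 and 94.6 FPKM without, against 119.9, 189 and 129 FPKM in heterozygous libraries with IL-17A and 102, 167 and 131 FPKM without. All knockout libraries lay below all heterozygous ones, but the margin was narrow for the culture labelled heterozygous 1, and the difference with IL-17A was -0.62 (SE 0.23, limma adjusted p = 0.507). Phlda1 (ENSMUSG00000020205, GRCm38 chromosome 10, 111506286 to 111508645, plus strand), a pleckstrin homology domain protein induced by growth factors, completed the 6. In knockout libraries Phlda1 stood at 131 and 52.6 FPKM with IL-17A and 112 and 107 FPKM without, and in heterozygous libraries at 142, 134 and 133 FPKM with IL-17A and 133, 139 and 135 FPKM without. Stimulated knockout culture 2 stood far below the other 9, and the difference was -0.71 (SE 0.30, limma adjusted p = 0.507). Leaving out the other stimulated knockout library, that of culture 1, gave a call for Phlda1 (log2 -1.36, SE 0.11, limma adjusted p = 0.0197, among 5 genes called lower, 0.0415%) that rests on this single low library, and knockout culture 2 also holds the raised fibroblast markers in both conditions.

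**Figure D4:**
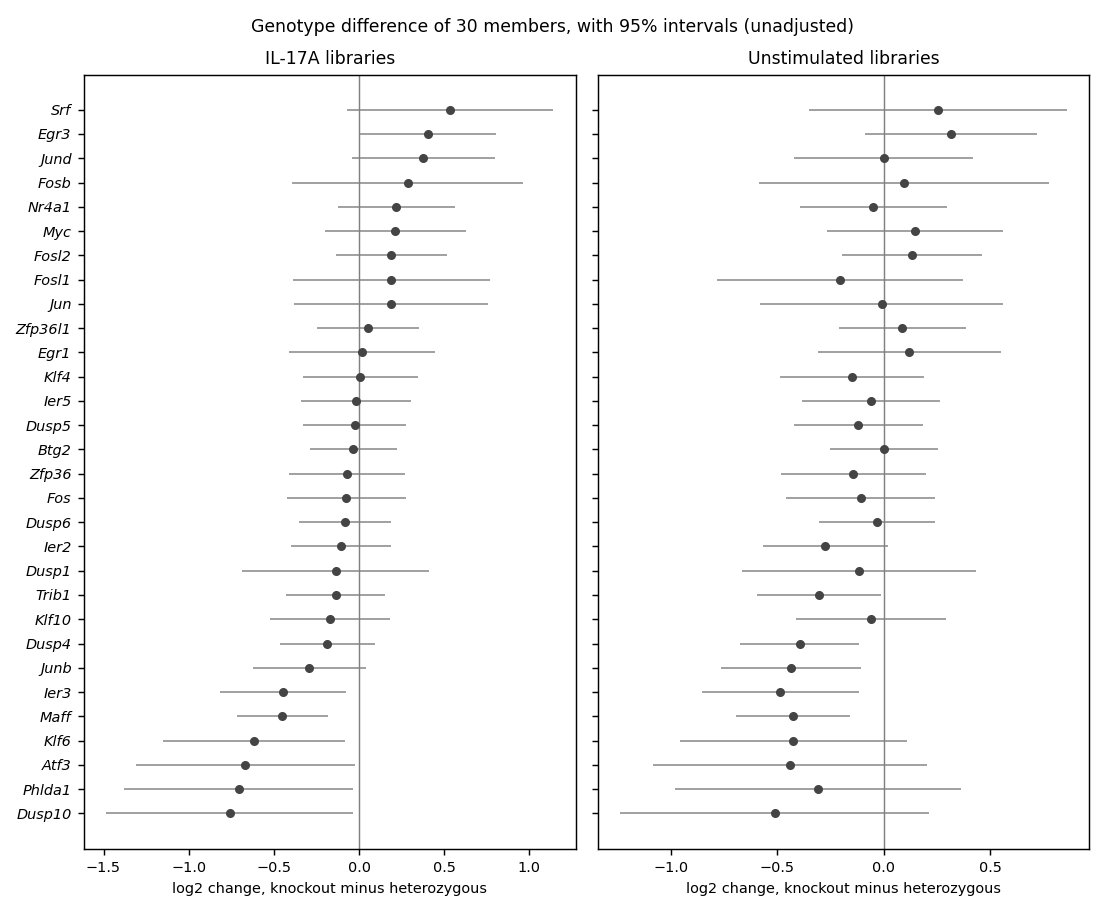
Log2 difference, knockout minus heterozygous, of the 30 members with IL-17A (left) and without (right); points are limma estimates on log2(FPKM + 1) and lines their unadjusted 95% intervals. Maff lies at -0.45 with IL-17A and -0.42 without, the intervals of most members include 0, and 0 of 30 members pass after adjustment.

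Over both conditions, 4 of 30 members were lower in all 4 knockout libraries than in all 6 heterozygous ones (Maff, Dusp4, Klf6 and Phlda1), beside 2.21% of all genes, and 0 of 30 were higher, beside 3.09%. Within library numbers 1 to 14, where the 4 knockout libraries can be set against the 2 labelled heterozygous culture 1, 13 of 30 members were lower in knockout without overlap, beside 7.65% of all genes, and 0 of 30 were higher, beside 8.29%. The 13 were Fos, Fosb, Fosl1, Jun, Atf3, Maff, Egr1, Dusp1, Dusp4, Dusp5, Klf6, Zfp36 and Phlda1. These 2 libraries come from a single culture whose Bcl10 level goes against its label, so the count compares that culture with the knockout cultures.

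Leaving out both libraries of heterozygous culture 1 changed the comparison with IL-17A. It then called 802 of 12061 genes (6.65%) and 6 of 30 members: Srf (log2 0.76, limma adjusted p = 0.0318), Fosl1 (0.47, 0.0429) and Jun (0.40, 0.0470) were higher in knockout libraries, as were 3.79% of all genes. Dusp10 (-0.96, limma adjusted p = 0.0332), Ier3 (-0.56, 0.0369) and Maff (-0.53, 0.0465) were lower, as were 2.86% of all genes. Without stimulation the same omission called 0 of 30 members and 117 genes (0.97%). In this subset genotype coincides with library number. Across the 2 number ranges, whatever the genotype, Fosb, Fosl2, Jun, Egr1 and Srf were higher in all libraries numbered 1 to 14 than in all numbered 33 to 38 (5 of 30, beside 17.4% of all genes), and Junb, Dusp10 and Klf6 were lower (3 of 30, beside 18.4%). Summed, the melanocyte markers separated the same ranges, at 171 to 201 FPKM in numbers 1 to 14 and 320 to 411 FPKM in numbers 33 to 38. All 7 averaged 1 FPKM or more, but Mitf and Sox10 overlapped between the ranges. Mitf had 1.12 to 1.51 FPKM in numbers 1 to 14 and 0.887 to 1.40 FPKM in numbers 33 to 38. Sox10 had 2.19 to 3.21 FPKM in numbers 1 to 14 and 3.05 to 3.95 FPKM in numbers 33 to 38. Other summed markers separated the ranges the other way. Basal keratinocyte markers summed to 10800 to 12132 FPKM in numbers 1 to 14 and 8493 to 9928 FPKM in numbers 33 to 38. Among them Krt15 and Trp63 overlapped between the ranges. Suprabasal markers summed to 99.8 to 156 FPKM in numbers 1 to 14 and 69.7 to 81.9 FPKM in numbers 33 to 38. Most of that sum was Sbsn, at 84.1 to 133 FPKM and 60.0 to 70.6 FPKM in the same order, while Krt1, Krt10 and Ivl overlapped. Fibroblast markers summed to 1.37 to 35.5 FPKM in numbers 1 to 14 and 0.496 to 0.751 FPKM in numbers 33 to 38. Outside knockout culture 2 only Thy1 separated, at 1.01 to 1.26 FPKM in numbers 1 to 14 and 0.337 to 0.558 FPKM in numbers 33 to 38. The other fibroblast markers overlapped there and reached at most 0.251 FPKM. Leukocyte markers, nearly all Cd68, summed to 7.79 to 10.5 FPKM in numbers 1 to 14 and 5.10 to 6.73 FPKM in numbers 33 to 38. The part of these markers in the differences was not tested. In bulk libraries fewer cells of a type and less RNA per cell cannot be told apart.

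Other genes of the pathway were then examined. None of 27 tested genes of the RAS, RAF, MEK and MAPK cascade was called in any of the 6 comparisons, nor any of 16 tested SRF, ETS and AP-1 partner factors (2 smallest averaged p-values: Mafk at log2 0.12 and Creb1 at -0.86), nor any of 32 further primary response genes (Klf9 at 0.10 and Rhob at 0.14). The median averaged log2 changes of these lists were -0.008, 0.005 and 0.04. The averaged change of Creb1 was larger in size than that of any member (-0.19 to 0.36), although it was not called. Of the 16 SRF, ETS and AP-1 partner factors, 2 were lower in knockout cells at an unadjusted p under 0.05, beside 0.705% of all genes. In heterozygous cells 0 of 16 were, beside 0.531%. Of 18 MAPK feedback inhibitors that are not members, 1 was called, and Lrig1 was the next in the averaged comparison (log2 0.22, limma adjusted p = 0.9999). The call was Dusp3, which encodes the small ERK and JNK phosphatase VHR. Dusp3 had 4.90 and 5.32 FPKM in knockout libraries with IL-17A and 9.70 and 10.2 FPKM without, against 10.7, 10.2 and 12.0 FPKM in heterozygous libraries with IL-17A and 10.6, 11.3 and 11.4 FPKM without. Both stimulated knockout libraries thus lay far below the other 8, including those labelled heterozygous culture 1. The difference between genotypes with IL-17A was log2 -0.97 (SE 0.10, limma adjusted p = 0.0249), the change with IL-17A in knockout cells -0.84 (SE 0.11, adjusted p = 0.0821; 0.00165 with culture as a random effect), and the difference in response -0.82 (SE 0.14, adjusted p = 0.660). The genotype call was lost on leaving out any 1 of the 10 libraries (adjusted p = 0.0574 to 0.155), while the log2 difference stayed between -0.91 and -1.02.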

How the data were processed

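FPKM values, normalised by the authors for gene length and library size, were deposited as a single table with 37991 Ensembl identifiers and 10 libraries. The build was mm10 and the tools named were HISAT2, SAMtools, StringTie and DESeq2, per the submitters' processing notes; their versions and roles, the annotation and the handling of strand are not stated there. No count model was fitted, since FPKM are not counts. Depth was estimated from the FPKM worth of 1 fragment in single-exon genes, and 47.2% to 55.0% of low values came out whole within 0.05. Floors cover counting error only.

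Symbols and positions came from GENCODE M21 on GRCm38 (32919 identifiers matched). The 12054 genes averaging 1 FPKM or more were tested on log2(FPKM + 1) by limma 3.58.1 in R 4.3.3 with a mean-variance trend, 4 group means in 1 fit, two-sided, Benjamini-Hochberg over all genes, threshold 0.05. Fold changes are on this scale and understate low genes. The fits were tested on simulated data, in which neither the reported fit nor the fixed-block fit called changes as small as that of Ier3. The fit with culture as a random effect called some but not all of them. A count of 0 therefore does not show that changes of this size were absent. Same-numbered libraries deviated together from their group means within a genotype (correlations across genes of 0.227 in knockout and 0.607, 0.488 and 0.137 in heterozygous cultures), and not across genotypes (-0.155 to 0.0476), so numbers were taken to pair libraries within a genotype only, and culture entered as a block in alternatives.

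The members and the other gene lists were chosen with earlier results of these data known. Values in every library are given for the members with the smallest p in each comparison (10 for IL-17A averaged over genotypes, 6 for each genotype comparison, 4 for the difference in response), the 4 most abundant, the tested FOS and JUN genes and those averaging between 0.5 and 2 FPKM; the other members are given by range. Genes outside the 35 are named where they passed or had the 2 smallest averaged p-values of their list; those of the kinase cascade list are not reported here.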

Additional observations from a re-analysis of the deposited data

Results flagged for a closer look

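For Jun, the level with IL-17A was higher in both knockout cultures and lower in all 3 heterozygous cultures, but the changes were small. Its ratios were 1.15 in knockout culture 1, 1.01 in knockout culture 2 and 0.906 to 0.956 in the heterozygous cultures. Knockout culture 1 holds the unstimulated library that stands apart, and the Bcl10 level of heterozygous culture 1 goes against its label. The difference in log2 change, knockout minus heterozygous, was 0.20 (SE 0.35, 95% interval -0.61 to 1.00) and did not pass by limma (adjusted p = 0.9997). With culture as a fixed block the SE of this difference was 0.085 and its 95% interval -0.015 to 0.411. It did not pass there either (limma adjusted p = 0.779).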

How the results depend on the processing

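Over 146 recomputed counts of the 8 comparisons, 140 stayed within 1.5 times of the reported count. All reported counts except that of members higher in every culture were 0, and for those it means only that the count stayed at 0. None of 632 recomputed values for the named pairs of gene and comparison turned its direction. Among all members some did with scaling: under TPM scaling Dusp6 and Btg2 for IL-17A in knockout cells, Btg2 for the average, Btg2, Dusp5 and Ier5 between genotypes with IL-17A, and Zfp36l1, Dusp1 and Maff for the difference in response, and Jun and Jund between unstimulated genotypes under TPM and median-of-ratios scaling. For knockout against heterozygous with IL-17A the count of members called was 0, but 6 without both libraries of heterozygous culture 1, and 1 without both libraries of knockout culture 1, where the gene called was Phlda1; on leaving out single libraries it was 0 to 1. For IL-17A averaged over genotypes the count was 0, and 1 (Ier3) in the fit with a single effect and culture as a block, which was added after seeing the data; that fit gave 0 to 1 when single cultures were left out. With a fixed replicate block for culture, 0 of 30 members passed for IL-17A in either genotype, averaged or for the difference in response, while the averaged comparison called 13 genes in all, against 6 without the block, 23 with culture as a random effect and 18 with the single effect. Pairing by label number across genotypes, which the data did not bear out, called 0 members between genotypes. Members lower in every culture were 0, and 3 without knockout culture 1, so the range over omitted cultures was 0 to 3. Members higher in every culture numbered 7, and 7 to 10 over omitted cultures. Under TPM scaling the split of members above and below 0 between genotypes was 19 and 15 with IL-17A, against 12 and 18 as reported, and 13 and 21 without stimulation, against 8 and 22; 34 members passed the filter there. Low FPKM limits Fosb and Egr3 most, and 2 knockout libraries per condition limit every genotype comparison.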

Other observations

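Among the 5 unstimulated libraries of both genotypes the highest level was 2.07 times the lowest for Dusp10, 1.77 times for Klf6 and 2.1 times for Atf3, against 1.15 times for Dusp6 and 1.16 times for Btg2. Within a culture the highest ratio of stimulated to unstimulated was 1.59 for Dusp10, 1.17 for Klf6 and 1.22 for Atf3. Nr4a2, an orphan nuclear receptor that stayed under the filter, was the 1 gene of the 35 that was higher in all knockout libraries (0.478 to 0.532 FPKM) than in all heterozygous ones (0.297 to 0.450 FPKM). Of all genes tested, among which Nr4a2 was not, 3.09% were higher in this way. Nr4a2 lay under 1 FPKM in every library, had no test, and was singled out after its values were seen.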
